A study of Mus musculus with 4 samples.

Results

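A set of 30 genes of protein folding and quality control in the endoplasmic reticulum (ER) and of the unfolded protein response were followed in ribosome profiling of mouse hearts. They were taken by symbol from the deposited tables, where each symbol stood on 1 Ensembl gene of 55382 in all. Hearts were collected on postnatal day 15 from mice labelled NAT10-FF (2 libraries, WT in the titles) and NAT10-CKO (2 libraries, KO in the titles). NAT10 is an enzyme that acetylates cytidines in RNA. The sources used here do not state the driver of the conditional knockout, the exons it removes, the strain or the sex. They also do not say whether the libraries of a group came from separate animals, so the p-values below measure the spread between libraries, which may be technical. Cardiomyocytes are the labelled cell type, although the protocol starts from whole heart tissue. All libraries share 1 batch label and the same handling: frozen heart tissue, cycloheximide to hold the ribosomes, and RNase I digestion. The tables give, per gene and library, the footprint level in FPKM (fragments scaled to gene length and library size) and the translation efficiency (TE), a ratio of footprints to RNA. Their quotient, FPKM over TE, is called the implied RNA level here.

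Proteins that are secreted or sit in membranes enter the ER through the Sec61 channel and fold there with the help of chaperones, lectins that bind sugar chains, and enzymes that form disulfide bonds. Proteins that fail to fold are drawn back into the cytosol and degraded, a route known as ER-associated degradation. When unfolded protein builds up, the sensors IRE1 (gene Ern1), ATF6 and PERK start the unfolded protein response: IRE1 splices Xbp1 mRNA, ATF6 is cut free to act as a transcription factor, and PERK slows translation. In heart muscle the same compartment is continuous with the sarcoplasmic reticulum, which stores calcium, and several of the chaperones bind calcium.

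ATF6 and XBP1 are known to act through short promoter elements, so the promoters are shown before the values. RefSeq (GRCm38.p6) promoter sequences were matched by symbol for 25 of the 30 genes, in 26 entries. The ER stress response element, ERSE, was searched as CCAAT and CCACG with any 9 bases between them, on both strands, in the 250 bases before the start. It was found in 9 of the 26 entries (34.6%) and in 37 of all 32851 entries of that length (0.113%). The matches are given with the fixed letters in capitals, in the direction of the gene; a match reading CGTGG first lies on the other strand.
Hspa5 (chr2:34772025-34772043): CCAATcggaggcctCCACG
Hsp90b1 (chr10:86705638-86705656): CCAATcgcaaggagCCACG
Hsp90b1 (chr10:86705533-86705551): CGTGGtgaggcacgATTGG
Calr (chr8:84847075-84847093): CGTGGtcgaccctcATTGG
Canx (chr11:50325800-50325818): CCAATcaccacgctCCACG
Pdia6 (chr12:17266491-17266509): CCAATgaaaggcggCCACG
Dnajc3 (chr14:118937827-118937845): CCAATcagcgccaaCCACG
Creld2 (chr15:88819520-88819538): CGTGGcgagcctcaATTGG
Syvn1 (chr19:6046532-6046550): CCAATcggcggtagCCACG
Derl3 (chr10:75893242-75893260): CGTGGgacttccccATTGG

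A second form of the element, ERSE-II, was searched as ATTGG and CCACG with any 1 base between them and stood in 1 of the 26 entries (3.85%), that of Herpud1, against 0.0304% of all entries. The CARE element of ATF4 and its partners, searched as TGATGNAA, also stood in 1 entry (3.85%), again that of Herpud1, against 3.45% of all. The XBP1 element UPRE, searched as TGACGTGG, was in 0 of the 26 and in 0.563% of all. ERSE and ERSE-II share the letters CCACG and UPRE holds their reverse complement, so these searches overlap in part. The windows of 4 genes are shown in full, because these genes bound the results: Hspa5 and Hsp90b1, with ERSE matches and the smallest differences among the abundant chaperones, Herpud1, with lower RNA in KO, and P4hb, with the largest footprint difference and none of the 4 elements. Capitals mark the letters of a match.
Hspa5 (chr2:34771840-34772089, plus strand): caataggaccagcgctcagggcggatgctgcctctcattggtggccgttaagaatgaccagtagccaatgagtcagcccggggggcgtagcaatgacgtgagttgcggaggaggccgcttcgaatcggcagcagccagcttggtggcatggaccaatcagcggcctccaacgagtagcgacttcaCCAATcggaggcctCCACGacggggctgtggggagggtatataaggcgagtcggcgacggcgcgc
Hsp90b1 (chr10:86705445-86705694, minus strand): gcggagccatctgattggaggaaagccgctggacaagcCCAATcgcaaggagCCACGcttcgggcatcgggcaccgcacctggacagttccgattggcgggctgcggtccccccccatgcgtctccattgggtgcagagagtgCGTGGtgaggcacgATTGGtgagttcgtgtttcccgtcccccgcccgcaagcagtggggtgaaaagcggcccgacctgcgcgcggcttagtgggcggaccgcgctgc
Herpud1 (chr8:94386179-94386428, plus strand): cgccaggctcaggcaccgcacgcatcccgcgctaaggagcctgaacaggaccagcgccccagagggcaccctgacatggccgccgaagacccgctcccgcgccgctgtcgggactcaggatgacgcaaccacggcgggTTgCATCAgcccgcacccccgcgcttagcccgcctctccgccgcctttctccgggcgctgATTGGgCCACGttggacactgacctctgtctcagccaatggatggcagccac
P4hb (chr11:120573254-120573503, minus strand): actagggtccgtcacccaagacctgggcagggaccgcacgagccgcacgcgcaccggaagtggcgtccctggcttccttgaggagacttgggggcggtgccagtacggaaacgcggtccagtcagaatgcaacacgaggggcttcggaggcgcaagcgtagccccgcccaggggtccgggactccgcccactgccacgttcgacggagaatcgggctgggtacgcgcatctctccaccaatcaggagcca

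The targeted gene and the make-up of the tissue were read first. Nat10 had 77.3 and 73.9 FPKM of footprints in WT against 40.01 and 52.1 in KO (log2 difference -0.71, SE 0.30, limma adjusted p = 0.295). KO read below WT in each library, but the difference did not pass. Cardiomyocyte markers were abundant in every library, with a summed level of 271730 and 316740 FPKM over 10 genes in WT against 183480 and 191010 in KO. Actc1 alone gave 132100 and 171570 FPKM in WT against 86846 and 92596 in KO. KO lay below WT without overlap for 8 of the 10 genes (12.1% of all genes did so). It lay above for 1, Myh7 (9.78 and 6.31 FPKM against 36.4 and 559). Summed markers of fibroblasts, cells that secrete matrix, ran from 20962 to 24765 FPKM in WT and from 50938 to 63224 in KO. KO lay above WT without overlap for 9 of the 10 genes (39.5% of all genes did so). Macrophage markers summed to 626 and 1046 FPKM in WT against 981 and 2043 in KO, endothelial ones to 5599 and 5917 against 7255 and 9519, epicardial ones to 30.6 and 21.3 against 82.6 and 104, and smooth muscle and pericyte ones to 4818 and 5532 against 4060 and 4417. The last sum is dominated by Acta2 (log2 difference -0.72). The median difference of those 8 genes was 0.46, with 4 above WT without overlap and 1 below (39.5% and 12.1% of all genes). In footprints KO lay above WT without overlap for 3 of 10 macrophage genes, 7 of 10 endothelial genes and 4 of 5 tested epicardial genes. The summed macrophage levels overlapped between the groups. These sums are of footprints, and the RNA of these lists did not always follow them. KO lay above WT in RNA without overlap for 5 of 10 fibroblast genes and 3 of 10 endothelial genes (44.2% of all genes did so). Fibroblast genes had a median log2 RNA difference of 0.51, beside 1.31 for footprints and 0.79 for TE. Endothelial genes had -0.14, beside 0.58 and 0.54. Macrophage genes had a median of 1.04 in RNA, beside 0.67 for footprints. Plasma cells, which are rich in ER, gave sums of 30.9 to 43.2 FPKM in WT and 26.6 to 52.1 in KO, with Tnfrsf17 listed at 0 in every library and Mzb1 at 0 in both KO libraries, and erythroid markers gave 817 to 1018 and 614 to 1210. In whole tissue, fewer cells of a type and less RNA per cell cannot be told apart. The part of these cell types in the differences below was not tested.

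The footprint levels of the set in WT hearts spanned a wide range. The Hsp70 chaperone Hspa5 (BiP) led with 2256 and 2472 FPKM of footprints, followed by the calcium-binding lectin Calr (calreticulin) at 1820 and 1975, the Hsp90 chaperone Hsp90b1 (GRP94) at 1769 and 1760, and the membrane lectin Canx (calnexin) at 1031 and 973. The WT values of these 4 genes did not overlap, but Calr replicate 1 and both Hsp90b1 libraries lay close together. These 4 genes held 65.7% and 70.5% of the summed footprint level of the set in WT and 60.02% and 61.6% in KO. At the other end stood Dnajc3 at 10.3 and 9.29 FPKM. Derl3, a derlin of secretory cells, was listed at 0 in 3 libraries and read 1.47 FPKM in WT replicate 2. It was the single member that missed the filter (FPKM of 1 or more in 2 or more libraries), so 29 were tested.

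Translation efficiency in WT differed widely within the set. By its mean TE in WT, Hsp90b1 (26.5 and 21.4) stood above 98.0% of the 12529 genes with a TE in all libraries, Hyou1 (21.98 and 23.8) above 97.8%, Hspa5 (18.97 and 19.3) above 96.6% and Calr (18.4 and 17.8) above 96.1%. In all, 22 of the 29 genes lay above the median gene. P4hb, a protein disulfide isomerase that is also the beta subunit of collagen prolyl hydroxylase, read 1.09 and 0.73, above only 9.76% of genes. Its implied RNA level, 60.6 and 70.8 FPKM, was close to that of Hsp90b1 at 66.8 and 82.3, but its footprint level was 66.1 and 51.7 FPKM against 1769 and 1760. Dnajc3 (0.94 and 0.80), Os9 (2.09 and 1.36) and Sec61b (2.76 and 1.59) also had low TE. The sources used here do not say how reads that map to several places were counted.

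**Figure D1:**
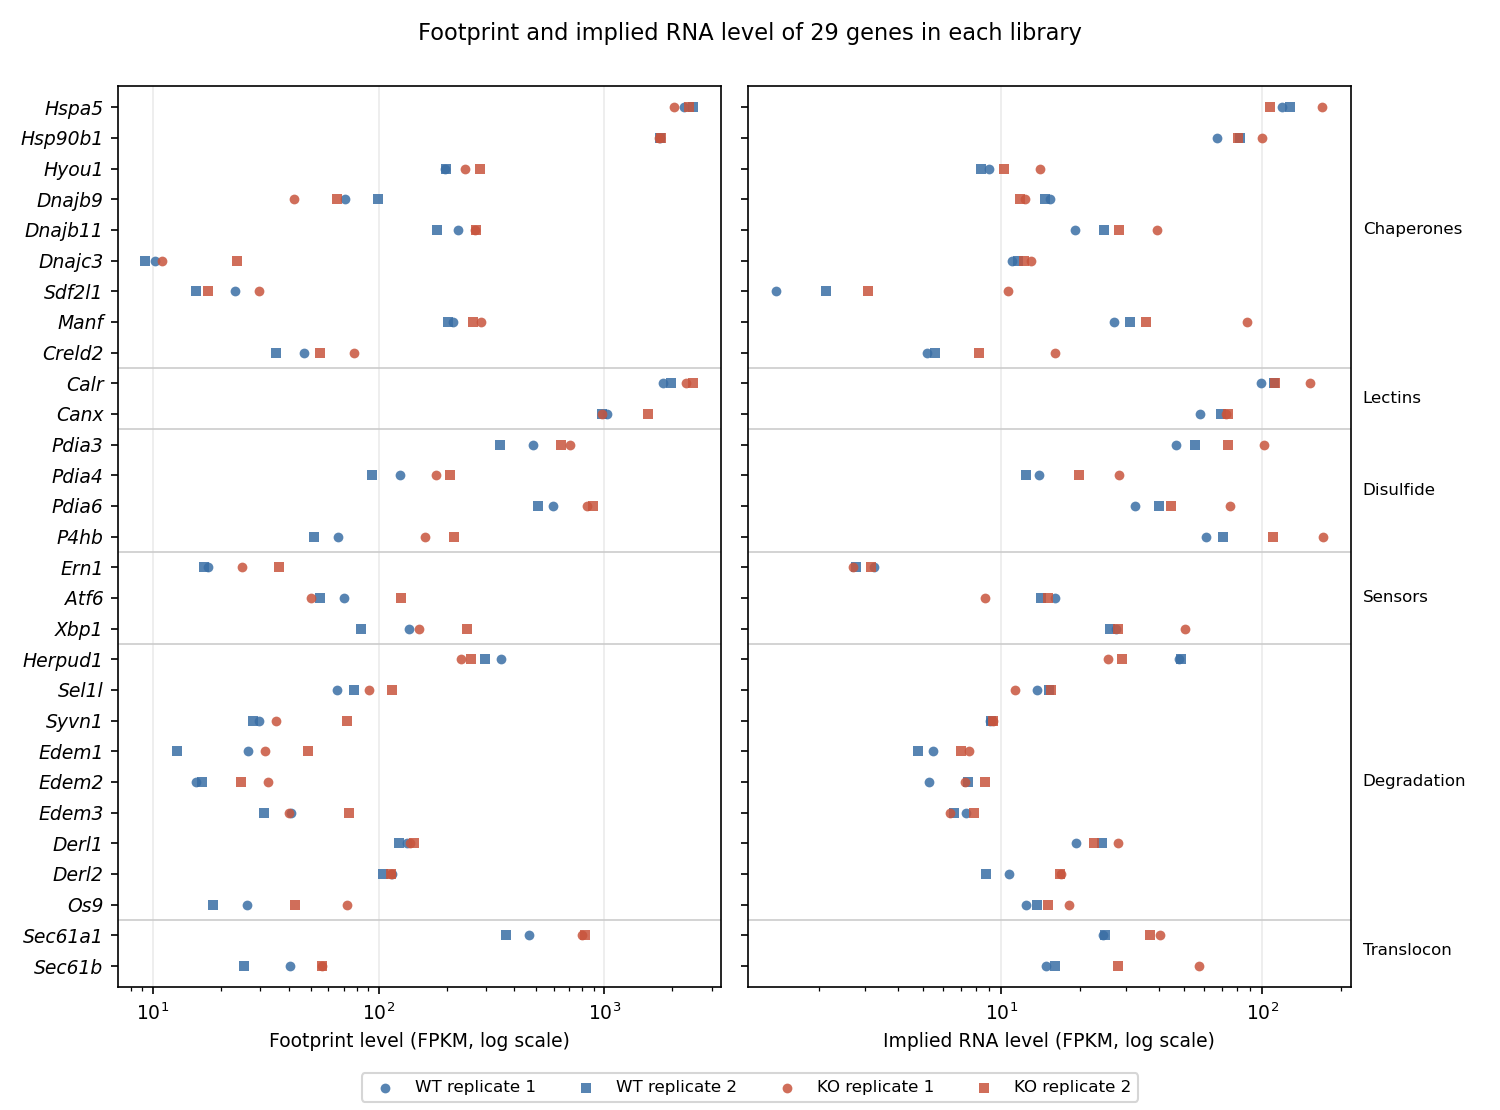
Footprint level (left) and implied RNA level (right) of the 29 tested genes on log FPKM axes, 1 point per library, with WT in blue and KO in red, grouped by role. The WT and KO footprint points of Hspa5, Hsp90b1 and Canx overlap, while the KO points of P4hb, Os9 and Sec61a1 lie to the right of the WT points.

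The comparison of KO with WT asks which of these mRNAs gained or lost footprints when Nat10 was targeted. Most of the set read higher in KO, but no gene passed the test over all genes. Of the 29 genes, 25 had a positive footprint difference (71.1% of all genes did) and 4 a negative one, with a median log2 difference of 0.59. The median of all 15031 tested genes was 0.36, so the set lay 0.23 above it, with 19 genes above that median and 10 below. Median-ratio scaling, which takes the median of all genes to 0.03, turned 6 footprint differences negative: Sdf2l1, Calr, Canx, Atf6, Derl1 and Derl2. By limma, 0 of 29 had an adjusted p under 0.05, against 0.253% of all genes higher and 0.126% lower, and the smallest adjusted p was 0.121. At an unadjusted p under 0.05 there were 6 genes, all higher in KO (20.7% of the set, against 13.5% of all genes; 3.8% of all genes were lower at that p): P4hb, Sec61a1, Os9, Pdia4, Pdia6 and Pdia3. Both KO libraries lay above both WT libraries for 20 genes (39.5% of all genes did so) and below for 2 (12.1% of all genes), and the groups overlapped for 7. Fold changes of footprints are on the log2(FPKM + 1) scale, so the change of low genes is understated. When only named protein-coding genes were tested, P4hb passed (adjusted p = 0.034), among 1.38% of genes called higher and 0.428% called lower there; over the other alternatives its adjusted p ran from 0.0877 to 0.666.

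The disulfide enzymes all read higher in KO, although none passed. P4hb (ENSMUSG00000025130, chromosome 11, 120560298 to 120573253) had 66.1 and 51.7 FPKM in WT against 160 and 216 in KO. The groups were far apart, at 58.9 ± 10.2 against 188 ± 39.2 FPKM (SD, n = 2), or 3.15-fold (log2 difference 1.65, SE 0.29, limma adjusted p = 0.121). Its RNA level also separated, at 60.6 and 70.8 FPKM against 171 and 110 (2.09-fold, adjusted p = 0.067). Pdia3 (ERp57), which works with the lectins on glycoproteins, read 483 and 345 FPKM in WT against 706 and 646 in KO. Pdia4 (ERp72) read 125 and 93.8 against 179 and 208, and Pdia6 (P5) 593 and 510 against 841 and 887. KO lay above WT without overlap for all 4 enzymes in footprints and in RNA (39.5% and 44.2% of all genes did so). Their RNA differences were 0.68 to 1.06 (log2), with limma adjusted p of 0.067 to 0.189. TE overlapped between the groups for each of them. The TE difference of Pdia3, Pdia4 and Pdia6 was -0.05, -0.003 and -0.02 with wide 95% intervals (for Pdia4, -1.11 to 1.10). That of P4hb was 0.61, with an interval of -0.96 to 2.18.

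The central chaperones had small footprint differences. Hspa5, the usual marker of ER stress and the holder of IRE1 and PERK in the resting state, (ENSMUSG00000026864, chromosome 2, 34772090 to 34776529) read 2256 and 2472 FPKM in WT against 2031 and 2376 in KO. The groups overlapped, and the log2 difference of -0.10 had a 95% interval of -0.64 to 0.43. Hsp90b1 read 1769 and 1760 FPKM against 1745 and 1780, a difference of -0.002 with an interval of -0.50 to 0.49. These intervals do not show that the levels were equal. Their RNA levels read 119 and 128 against 169 and 107 FPKM for Hspa5 and 66.8 and 82.3 against 99.8 and 80.8 for Hsp90b1. For both, KO replicate 1 was the high library and KO replicate 2 lay among or below the WT values.

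Partners of Hspa5 differed from one another. Dnajb9 (ERdj4), a J-domain cochaperone that acts on IRE1 and is a known XBP1 target, read 70.96 and 99.7 FPKM in WT against 42.4 and 65.8 in KO, the most negative difference of the set (log2 -0.66, SE 0.35, adjusted p = 0.380). Both KO libraries were below both WT libraries in footprints and in RNA (15.4 and 14.7 against 12.3 and 11.7 FPKM). Dnajb11 (ERdj3), another cochaperone, read 225 and 181 FPKM against 267 and 270, and Hyou1 (GRP170), which exchanges the nucleotide of Hspa5, 197 and 199 against 242 and 280. Dnajc3 (p58IPK), a cochaperone that also curbs PERK, read 10.3 and 9.29 against 10.97 and 23.7, so its difference of 0.67 rested on KO replicate 2.

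Among the chaperones and cofactors, 3 soluble factors had the largest RNA differences. Sdf2l1, a partner of the J-domain proteins, had an implied RNA level of 1.36 and 2.13 FPKM in WT against 10.6 and 3.07 in KO (3.35-fold, adjusted p = 0.118). Its footprints overlapped, at 23.2 and 15.6 against 29.6 and 17.6 FPKM, and its TE difference was the most negative of the set, at 17.0 and 7.30 against 2.78 and 5.74 (log2 difference -1.48, unadjusted p = 0.047, adjusted p = 0.806). Creld2, a folding factor with isomerase-like motifs, read 5.19 and 5.59 FPKM of RNA against 16.1 and 8.24, and 46.8 and 35.2 FPKM of footprints against 78.1 and 54.9. Manf, a secreted factor that binds Hspa5, read 26.9 and 30.99 FPKM of RNA against 87.3 and 35.9, and 214 and 203 FPKM of footprints against 285 and 263. In each of the 3 genes KO replicate 1 carried most of the RNA difference. With KO replicate 2 left out, the log2 RNA differences of Sdf2l1, Creld2 and Manf were 2.64, 1.57 and 1.60. With KO replicate 1 left out they were 0.85, 0.61 and 0.31.

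Of the lectins, Calr read 1820 and 1975 FPKM in WT against 2309 and 2475 in KO (1.26-fold, adjusted p = 0.435), without overlap. Canx read 1031 and 973 against 981 and 1561, so its groups overlapped. Their TE differences were 0.01 and 0.09.

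The sensors Ern1 and Atf6 had positive footprint and TE differences and negative RNA differences, and Xbp1 was positive in all 3. The groups overlapped in the RNA of Ern1 and Atf6 and in the TE of Xbp1. Ern1, the kinase and RNase IRE1, had 17.5 and 16.9 FPKM of footprints in WT against 24.7 and 36.3 in KO, while its RNA overlapped at 3.26 and 2.77 against 2.697 and 3.16. Its TE separated, at 5.365 and 6.11 against 9.17 and 11.5 (log2 difference 0.84, SE 0.42, adjusted p = 0.828). Atf6 had footprints of 70.3 and 55.03 FPKM against 50.05 and 125, so KO replicate 1 was the lowest library and KO replicate 2 the highest. RNA of Atf6 read 16.0 and 14.2 FPKM against 8.64 and 15.2, so its negative difference rested on KO replicate 1. The TE of Atf6 separated as well, at 4.39 and 3.89 against 5.79 and 8.27. Xbp1, the transcription factor whose mRNA IRE1 splices, read 137 and 83.2 FPKM of footprints against 151 and 246, and 27.4 and 26.1 FPKM of RNA against 50.7 and 28.01. TE of Xbp1 read 4.99 and 3.19 against 2.99 and 8.77, with KO replicate 1 the lowest library and KO replicate 2 the highest. Gene-level values do not separate spliced from unspliced Xbp1.

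Of the 9 tested degradation genes, 8 had a positive footprint difference (71.1% of all genes did) and 1, Herpud1, a negative one. Os9, a lectin of the lumen that passes misfolded glycoproteins to the ubiquitin ligase complex, read 26.1 and 18.5 FPKM of footprints in WT against 72.2 and 42.9 in KO (2.46-fold, log2 difference 1.301, SE 0.41, adjusted p = 0.229). Its RNA differed less, at 12.4 and 13.7 against 18.1 and 15.1 FPKM. Herpud1, a membrane protein of the ligase complex that is among the most responsive genes in ER stress, went the other way. Its RNA stood at 47.7 and 48.95 FPKM in WT against 25.6 and 29.01 in KO, with little spread within groups (log2 difference -0.83, SE 0.20, adjusted p = 0.060, the smallest of the set). Footprints of Herpud1 were 348 and 297 against 231 and 258 FPKM, and its TE was 7.29 and 6.06 against 9.02 and 8.89. With the libraries scaled to a common median ratio, which removes the general shift of 0.22 in RNA, its RNA difference was -1.04 and passed (adjusted p = 0.0348). Under that scaling 2.47% of genes passed as lower and 2.61% as higher. The RNA difference of Herpud1 stayed negative with any 1 library left out. Without KO replicate 1 it was -0.74 and without KO replicate 2 -0.92 (log2). Without WT replicate 1 it was -0.85 and without WT replicate 2 -0.81. Each such fit has 1 library in 1 of the groups, so only the size of the difference is given.

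Of the other 7 tested degradation genes, 5 read higher in KO by 0.51 to 1.05 in footprints (log2), and Derl1 and Derl2 by 0.13 and 0.05; none passed. Edem1, Edem2 and Edem3, which trim mannose from glycoproteins bound for degradation, read 26.5 and 12.8 against 31.5 and 48.95, 15.5 and 16.5 against 32.4 and 24.5, and 41.1 and 31.1 against 39.97 and 74.1 FPKM. The first and second of them did not overlap between groups and the third did. Sel1l, the scaffold of the ligase, read 65.6 and 77.8 FPKM against 90.9 and 114, and Syvn1 (HRD1), its catalytic subunit, 29.7 and 27.7 against 35.2 and 72.2. RNA of Syvn1 was 9.06 and 9.12 FPKM against 9.264 and 9.275, a log2 difference of 0.03. Derl1 and Derl2, derlins of the channel that returns proteins to the cytosol, had close footprint levels, at 133 and 124 against 138 and 144, and 115 and 104 against 113 and 113. Derl2 had more RNA in KO (10.7 and 8.72 against 17.0 and 16.8 FPKM, adjusted p = 0.0785) and its TE lay below WT (10.7 and 11.97 against 6.66 and 6.74).

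The translocon genes read higher in KO. Sec61a1, the channel subunit, had 464 and 367 FPKM of footprints in WT against 796 and 820 in KO, or 416 ± 68.7 against 808 ± 16.8 (SD, n = 2; 1.95-fold, log2 difference 0.97, SE 0.22, adjusted p = 0.163). Its RNA separated too, at 24.6 and 24.97 against 40.7 and 37.06 FPKM. Sec61b, a small subunit, read 40.8 and 25.5 against 56.5 and 56.2 FPKM of footprints and 14.8 and 16.02 against 57.02 and 27.9 FPKM of RNA (2.59-fold, adjusted p = 0.066).

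**Figure D2:**
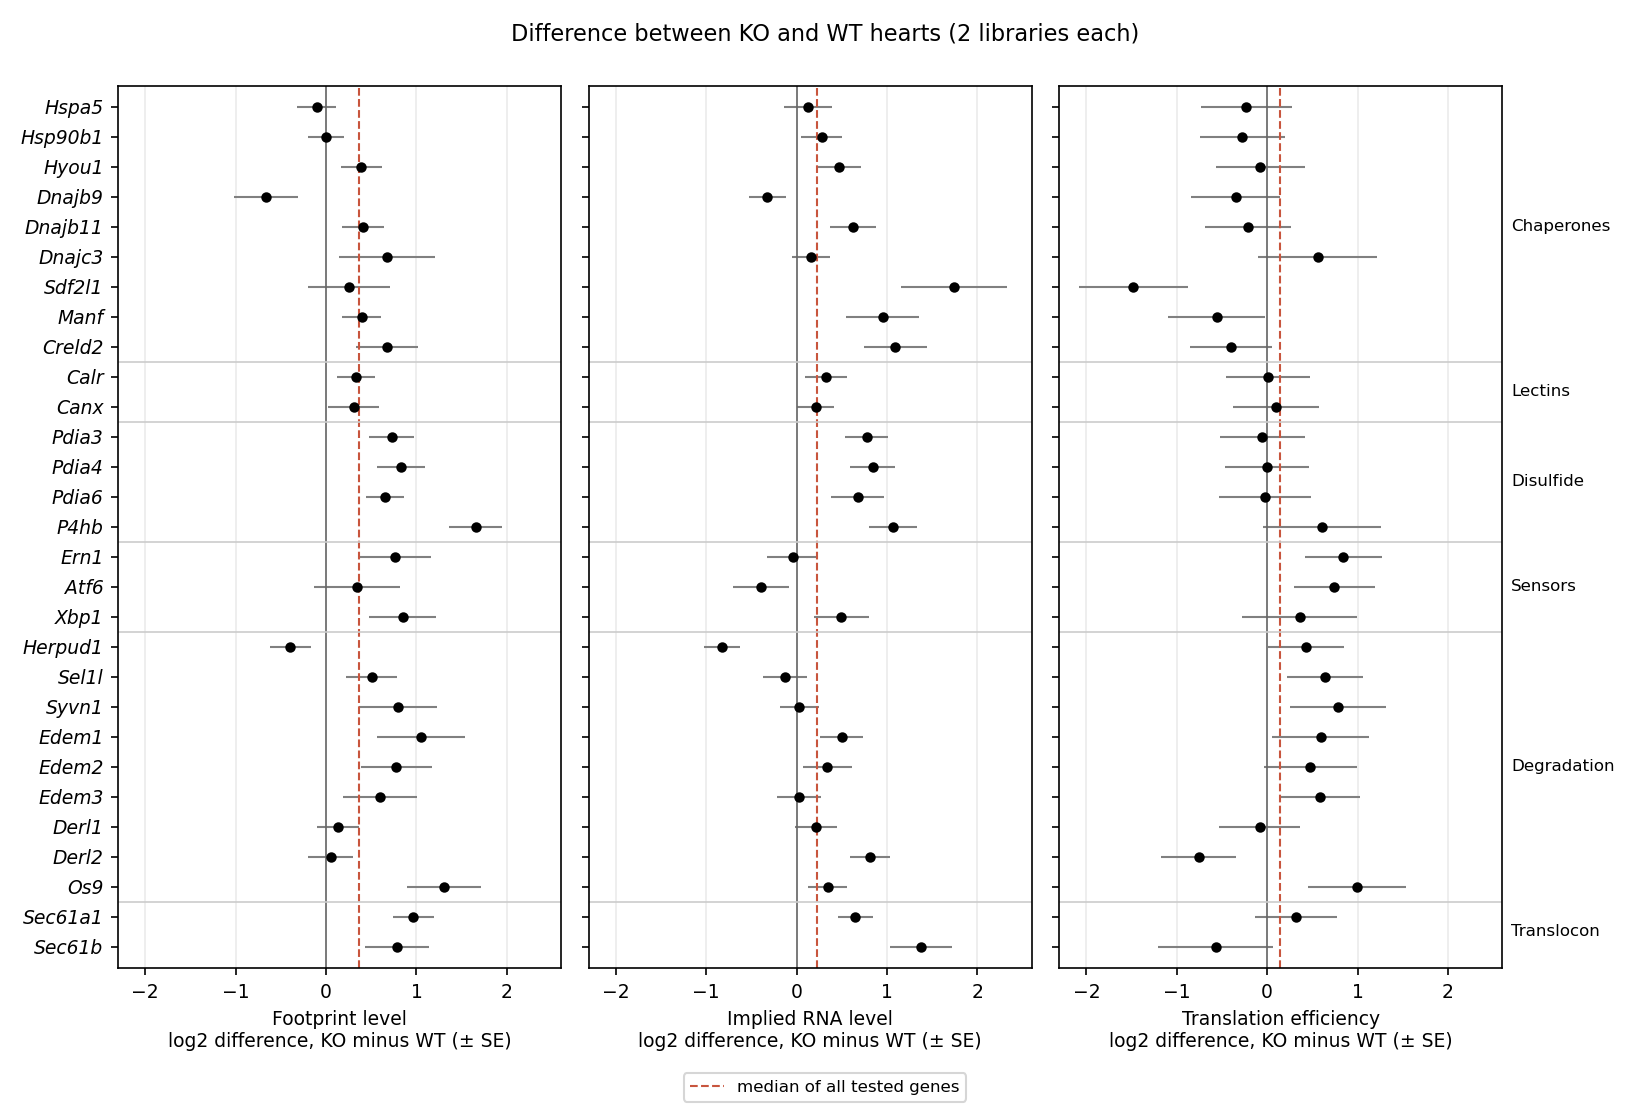
Log2 difference (KO minus WT) of each of the 29 tested genes for footprints, implied RNA level and TE, as points with bars of 1 SE, from 2 libraries per group; the red dashed line is the median of all tested genes. P4hb has the largest footprint difference (1.65) and Dnajb9 the most negative (-0.66), while Sdf2l1 has the largest RNA difference (1.74) and the lowest TE difference (-1.48).

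Over the set, most RNA differences were positive and TE differences fell on both sides of 0. For RNA, 24 of 29 differences were positive (64.6% of all genes), with a median log2 difference of 0.34 beside 0.22 for all 12529 genes. Median-ratio scaling turned 6 of them negative (Hspa5, Dnajc3, Canx, Syvn1, Edem3 and Derl1) and took the median of the set to 0.13, and leaving out KO replicate 2 took it to 0.55 and leaving out KO replicate 1 to 0.22. By limma 0 of 29 passed (4.2% of all genes passed as higher and 1.53% as lower), and 10 had an unadjusted p under 0.05, with 9 of them higher and Herpud1 lower (28.3% of all genes, with 21.1% higher and 7.17% lower). KO lay above WT without overlap for 19 genes (44.2% of all) and below for 2 (18.6% of all). Leaving out KO replicate 2 made 12 genes pass as higher and 2, Atf6 and Herpud1, as lower, among 21.0% and 8.86% of all genes. Leaving out WT replicate 2 made 2 pass as higher, Sdf2l1 and Sec61b, among 7.11% of all genes called higher and 2.15% lower. For TE, 15 differences were positive (59.5% of all genes) and 14 negative, with a median of 0.01 beside 0.15 for all genes, and 0 of 29 passed in either direction (0.0% of all genes passed), with 1 gene, Sdf2l1, at an unadjusted p under 0.05 and lower in KO (1.38% of all genes were lower and 4.68% higher). TE lay above WT without overlap for 8 genes (24.0% of all) and below for 2 (12.0% of all). Footprint and RNA differences correlated at r = 0.42 across the 29 genes and at 0.55 across all 12529 genes, which share the 4 libraries.

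The sign of the TE difference varied between roles. Of the 9 chaperones and cofactors, 8 had a negative TE difference (median -0.28), and the exception was Dnajc3. Of the 9 tested degradation genes 7 had a positive one (median 0.58), as had Ern1, Atf6 and Xbp1 (0.36 to 0.84). None of these passed, and the difference between roles was not tested. The chaperone pattern rested on KO replicate 1: without it, 6 of the 9 TE differences were positive and 3 negative (median 0.025). Without KO replicate 2 all 9 were negative (median -0.63), and the TE difference of Xbp1 turned negative. The degradation genes had 7 or 8 positive differences with any 1 library left out. The KO libraries differed from each other in TE: KO replicate 2 was above KO replicate 1 in 25 of the 29 genes (66.4% of all genes), and in RNA KO replicate 1 was above KO replicate 2 in 21 (53.8% of all genes).

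**Figure D3:**
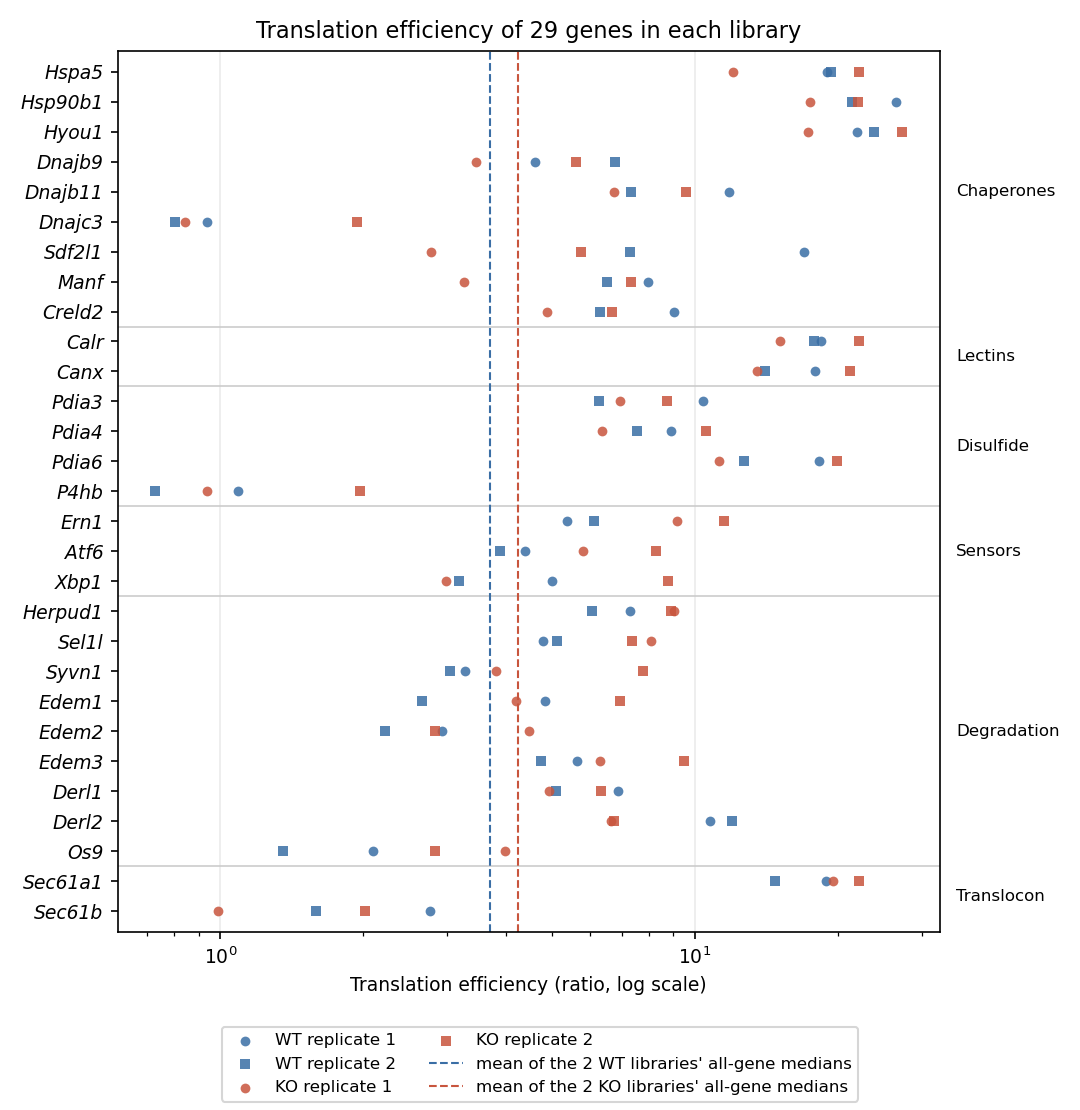
Translation efficiency of the 29 tested genes on a log axis, 1 point per library, with dashed lines at the mean of each group's all-gene medians. Hspa5, Hsp90b1, Hyou1, Calr, Canx, Pdia6 and Sec61a1 lie far to the right of the lines in every library, P4hb and Dnajc3 lie to the left, and Ern1, Sel1l and Herpud1 have both KO points to the right of both WT points.

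The genes with an ERSE match in the promoters shown above were set beside those without. Of the 9 genes with a match, 8 were tested, and their footprint differences ran from -0.10 to 0.79 with a median of 0.49. The 16 genes whose promoter had no ERSE match, among them Herpud1 with ERSE-II, ran from -0.66 to 1.65 with a median of 0.75. RNA differences had medians of 0.24 and 0.50 in the same order, and TE differences -0.006 and 0.40. The window of Edem1, counted without a match, lay inside the span of the gene (chromosome 6, 108824045 to 108859356). The medians are descriptions, and a promoter without these letters in this window says nothing of ATF6 or XBP1.

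Other genes of the secretory pathway were read from 8 lists. In the PERK arm (12 Ensembl genes for 11 symbols), 1 rose in footprints and 0 fell (0.253% and 0.126% of all genes): Ddit3, which codes for the transcription factor CHOP, on 1 of the 2 Ensembl genes that carry its symbol (ENSMUSG00000116429; 23.4 and 27.6 FPKM in WT, 574 and 597 in KO, adjusted p = 0.0043). That gene has no implied RNA level. The other (ENSMUSG00000025408) read 4.04 and 7.12 against 16.9 and 9.47 FPKM and its RNA rose (10.3 and 14.1 against 36.2 and 29.8 FPKM, adjusted p = 0.034). The sources used here do not say how reads were shared between both, so the size of the Ddit3 change is uncertain. RNA of Eif2s1, the translation factor subunit that PERK phosphorylates, rose (13.7 and 13.6 against 32.6 and 28.9 FPKM, adjusted p = 0.036), and RNA of Chac1, a glutathione-degrading enzyme downstream of ATF4, fell (3.76 and 5.54 against 0.34 and 0.62 FPKM, adjusted p = 0.023). Trib3, a pseudokinase induced by CHOP, read 2.54 and 3.07 FPKM of footprints against 9.44 and 17.7 (adjusted p = 0.213).

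The collagen-folding list stood next to P4hb, whose protein serves in the same hydroxylase. Of its 16 tested genes, 0 passed in footprints by limma, with a median log2 difference of 0.81, and 12 lay above WT without overlap (39.5% of all genes did). In RNA 4 rose and 0 fell (4.2% of all genes rose and 1.53% fell): Plod2, a lysyl hydroxylase (11.3 and 9.91 FPKM against 40.1 and 39.5, adjusted p = 0.016), P3h2, a prolyl 3-hydroxylase (1.43 and 1.95 against 10.2 and 10.6, adjusted p = 0.016), P4ha3 (0.31 and 0.47 against 2.65 and 2.31, adjusted p = 0.028) and P4ha1 (10.6 and 9.09 against 34.4 and 20.6, adjusted p = 0.046). P4ha1 and P4ha3 are alpha subunits that pair with P4hb. Fibroblast markers, given above, were higher in the same KO libraries, and their part in these values was not tested.

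Of 17 other disulfide enzymes, 0 passed in footprints (0.253% of all genes rose) and 2 rose in RNA (4.2% of all genes did): Qsox1, a sulfhydryl oxidase (13.4 and 19.0 FPKM against 56.2 and 39.5, adjusted p = 0.036), and Txndc5, a protein disulfide isomerase (19.7 and 22.5 against 60.7 and 42.03, adjusted p = 0.044). Footprints of Txndc5 were 79.4 and 58.8 against 234 and 303 FPKM (adjusted p = 0.085). Of 25 other chaperones of the ER, 0 passed in footprints and 1 rose in RNA, a share near that of all genes: Rcn1, a calcium-binding protein of the lumen (11.2 and 14.2 against 31.5 and 25.9 FPKM, adjusted p = 0.044). Rcn3, a relative of Rcn1, read 279 and 237 FPKM of footprints against 805 and 738 (adjusted p = 0.074).

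The last 4 lists, of 16 other sensors and regulators, 23 other degradation factors, 20 genes of glycan transfer and the lectin cycle, and 23 of targeting and translocation, had 0 calls in footprints, RNA or TE. Of all genes, 0.253% rose and 0.126% fell in footprints, and 4.2% rose and 1.53% fell in RNA. Median footprint differences of the 4 lists were 0.47, 0.28, 0.47 and 0.46, beside 0.36 for all genes. Ganab, the glucosidase that prepares glycans for calnexin and calreticulin, read 48.3 and 23.6 FPKM of footprints against 126 and 245 (adjusted p = 0.150), and Creb3l2, a membrane-bound transcription factor, 62.1 and 45.8 against 130 and 149 (adjusted p = 0.152). Ssr4, a subunit of the complex beside the Sec61 channel, read 220 and 229 against 438 and 376 (adjusted p = 0.184). Among the other degradation factors, Tmub1 read lower in KO, at 26.2 and 17.5 FPKM against 9.02 and 11.5 (limma adjusted p = 0.319). Herpud2 and Selenos read higher, at 18.7 and 5.07 against 22.5 and 45.7, and 86.8 and 103 against 136 and 206. TE gave 0 calls in any of the 8 lists, as over all genes.

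**Figure D4:**
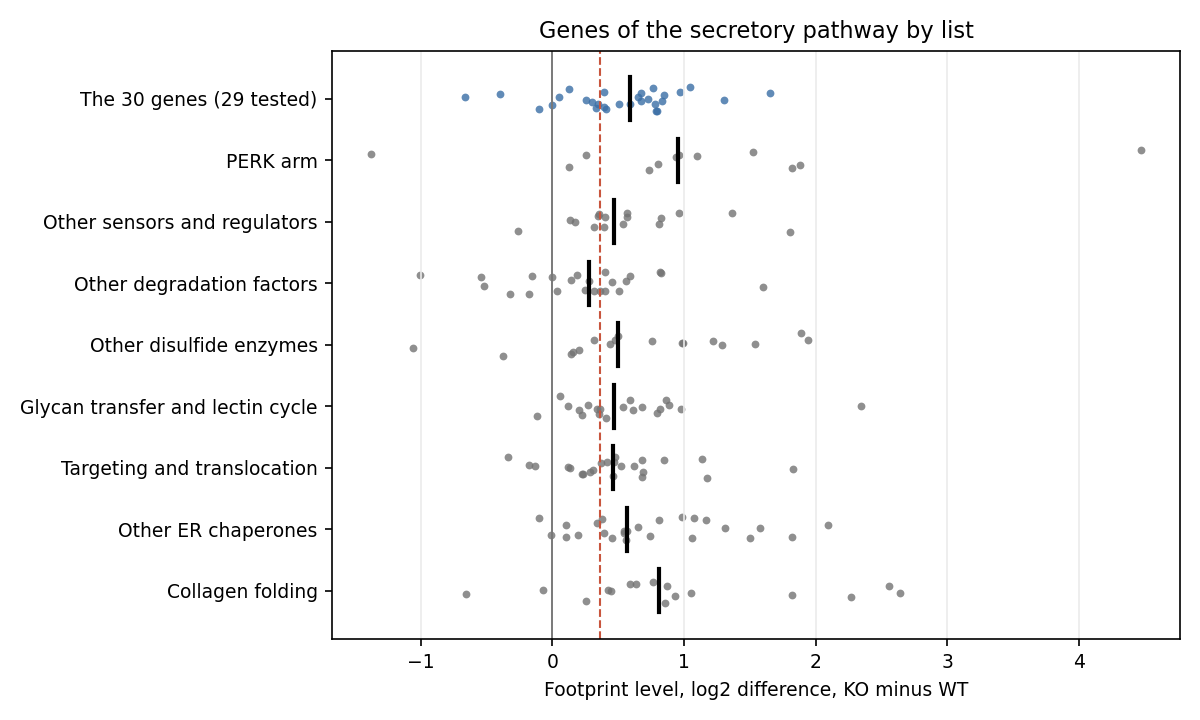
Footprint log2 difference (KO minus WT) of every tested gene in the set and in 8 related lists, 1 point per gene with small vertical jitter; black bars are list medians and the red dashed line is the median of all tested genes (0.36). The PERK arm and the collagen-folding list have the highest medians, 0.95 and 0.81, the set of 30 genes has 0.59, and the far point of the PERK arm is 1 of the 2 Ensembl genes named Ddit3.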

How the data were processed

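Ribosome footprints of 4 heart libraries, 2 WT and 2 KO, were analysed from 2 deposited tables. The first holds footprint levels that the authors gave in FPKM; the second holds TE, a deposited ratio. The submitters' processing notes name STAR 2.7.4a, Bowtie 1.3.1, HTSeq 0.13.5, Cufflinks 2.2.1, cutadapt 3.7 and FastQC 0.11.9, and GRCm38 as the build. The sources used here do not state the settings, the strand use or the RNA libraries behind TE. FPKM over TE had at most 6 significant digits in all 59296 quotients (relative tolerance 1e-10) and was used as the implied RNA level in FPKM; a TE of 0 was taken as missing. Read depth is unknown, so no counting interval is given; the summed FPKM ran from 7042400 to 8735000.

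Tests covered genes whose FPKM reached 1 in 2 or more libraries (15031; 12529 for RNA and TE, which also needed a TE above 0 in all 4). limma 3.58.1 in R 4.3.3 (lmFit, eBayes with a trend) was run on log2(FPKM + 1), log2 RNA and log2 TE, two-sided, without covariates, with Benjamini-Hochberg adjustment over all genes and a threshold of 0.05. Intervals are 95%, from the same fit. With 2 against 2 libraries an exact permutation test cannot go below 0.333 and was not used. No counts were available for an interaction model. All 30 members were described; of related lists, genes past the threshold or, failing that, some of the 3 with the smallest footprint p were named. The members and lists were chosen with earlier results of these data known. Positions are those of RefSeq GRCm38.p6. Alternatives were the pseudocount, the filter, the scaling, the trend, the genes tested, each library left out and a replicate block.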

Additional observations from a re-analysis of the deposited data

How the results depend on the processing

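The absence of calls among the 29 tested genes held for footprints and TE under every alternative except that testing only named protein-coding genes called 1 gene higher, P4hb. For RNA, median-ratio scaling called 1 gene lower (Herpud1), the fit with the replicate block called 3 higher (Creld2, Sdf2l1 and Sec61b), and leaving out a library called 0 to 12 higher and 0 to 2 lower, with the most when KO replicate 2 was left out. Same-numbered libraries did not deviate together (r = -0.056 for footprints over 15031 genes, and -0.22 for RNA and -0.018 for TE over 12529), so the numbers were not taken to pair the libraries. Since the RNA value is below 0, the crossed replicate block was added for RNA after seeing the data. It called 11 of the 29 genes higher and 1 lower, among 2412 and 829 of all 12529 genes. The block was chosen from the same deviations that it removes, so a rise in calls was built in. The labels give no such pairing, and nothing is concluded from these calls. The median difference of the set was 0.23 for footprints and 0.13 for RNA with median-ratio scaling; with a library left out it ran from 0.40 to 0.73 for footprints, 0.22 to 0.55 for RNA and -0.26 to 0.36 for TE. Relative to all tested genes these medians moved by less than the spread between libraries under each alternative. With median-ratio scaling the sign changed for footprint level Sdf2l1 -0.099, Calr -0.039, Canx -0.068, Atf6 -0.023, Derl1 -0.24, Derl2 -0.32; for implied RNA level Hspa5 -0.093, Dnajc3 -0.056, Canx -0.0069, Syvn1 -0.19, Edem3 -0.19, Derl1 -0.0017; for TE Calr -0.13, Canx -0.052. When single libraries were left out, further signs changed. For footprint level the log2 difference changed sign for Hspa5 (-0.22 to 0.0087), Hsp90b1 (-0.016 to 0.013), Sdf2l1 (-0.10 to 0.61), Canx (-0.030 to 0.64), Atf6 (-0.31 to 1.00), Derl2 (-0.016 to 0.12). For implied RNA level the log2 difference changed sign for Hspa5 (-0.20 to 0.45), Ern1 (-0.16 to 0.075), Atf6 (-0.80 to 0.0097), Sel1l (-0.36 to 0.11), Edem3 (-0.13 to 0.18). For TE the log2 difference changed sign for Hspa5 (-0.67 to 0.21), Hyou1 (-0.40 to 0.26), Dnajb9 (-0.70 to 0.0026), Dnajb11 (-0.56 to 0.14), Dnajc3 (-0.042 to 1.16), Manf (-1.15 to 0.025), Calr (-0.26 to 0.29), Canx (-0.23 to 0.42), Pdia3 (-0.42 to 0.31), Pdia4 (-0.37 to 0.36), Pdia6 (-0.44 to 0.39), Xbp1 (-0.42 to 1.14), Derl1 (-0.30 to 0.13). None of these was called in the main comparison, and the cause of the changes was not tested. The pseudocount, the filter and the trend changed no sign and no call among the 29 genes. Over all genes the footprint calls were 38 higher and 19 lower; they were 0 and 0 with any 1 library left out, 7 and 1 without the filter, 23 and 11 with the other pseudocount, 23 and 13 without the trend, 40 and 30 with scaling, 177 and 55 among named protein-coding genes and 118 and 25 with the replicate block. RNA calls were 526 and 192; they were 50 and 17 without the trend, 327 and 309 with scaling, 1028 and 401 with the block, 891 and 269 without WT replicate 2 and 2632 and 1110 without KO replicate 2. TE calls were 0 and 0; they were 126 and 52 with the block, 23 and 10 without WT replicate 1, 6 and 2 without WT replicate 2, and 0 and 1 without the trend or among named protein-coding genes. The unknown read depth limits what low values such as those of Sdf2l1 RNA or Dnajc3 footprints can show.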
